A study of Mus musculus with 4 samples.

Results

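Interleukin 6, interleukin 11, leukaemia inhibitory factor and oncostatin M are secreted cytokines that signal through a shared receptor chain, gp130, encoded by Il6st. Each ligand first binds a receptor chain of its own or a partner chain, such as the interleukin 11 receptor alpha chain, the LIF receptor or the oncostatin M receptor, and the complex activates JAK kinases, which phosphorylate the transcription factor Stat3. Stat3 induces Socs3, an inhibitor that binds gp130 and the kinases and limits the signal. In the liver this family is known for driving the acute-phase response, and in colon tumours for acting on tumour and stromal cells.

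The 10 genes examined were the ligands Il11, Il6, Lif and Osm, the receptor genes Il6st, Il11ra1, Lifr and Osmr, the transducer Stat3 and the feedback inhibitor Socs3. Every probe set that the platform annotation gives to one of these symbols alone was taken, which came to 22 of 45037 probe sets and covered 9 of the 10 genes (the annotation names 18193 genes in all). No probe set was listed for Il11ra1, whose expression was not analysed here. A probe set is a group of short probes for one transcript region, so several probe sets of a gene are repeated readings of the same RNA and not replicates of a condition.

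Expression was measured on 4 arrays, 1 for each group. The groups were Dectin-2 knockout (Clec4n-/-) Kupffer cells co-cultured with SL4 cells, wild-type Kupffer cells co-cultured with SL4 cells, knockout Kupffer cells and SL4 cells kept separately, and wild-type Kupffer cells and SL4 cells kept separately. Kupffer cells are the resident macrophages of the liver, and here they were sorted, by CD45, CD11b and the macrophage antigen encoded by Adgre1, from 12-week-old female C57BL/6 mice, while SL4 is a mouse colon carcinoma line of the same strain. All cultures lasted 8 hours with equal numbers of both cell types, and the RNA of separate cultures was mixed, so each array holds RNA of both. The cell type in which a transcript was made is therefore not known, and fewer cells of a type cannot be told apart from less RNA per cell.

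Signals are relative within an array, since each array had been scaled to a common mean. The median signal was 77.5 and 78.4 in the knockout and wild-type co-culture arrays and 75.8 and 72.5 in the knockout and wild-type separate arrays. A floor of 76.1, the median of all signals, marks what is treated as measured, and a ratio whose dimmer side lay at or under it is written as "at least". Of 84 probe sets for smell, taste and vomeronasal receptors, 0 to 2 per array read above this floor, and their 95th percentile lay between 19.1 and 27.2. Both probe sets of Clec4n, the deleted gene, read 8.19 and 3.49 in knockout co-culture against 17.6 and 7.35 in wild-type co-culture, and 8.29 and 0.629 in knockout separate culture against 14.2 and 4.21 in wild-type separate culture. These values all lay under the floor and under the 95th percentile of those receptor probe sets. The place of these probes relative to the deletion is not given. The Clec4n signals are therefore no check of the genotype labels.

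Of the 22 probe sets, 17 from 8 genes rose above the floor in at least 1 array. The other 5 were the single probe set of Osm, 1 of 3 for Osmr, 2 of 4 for Stat3 and 1 of 3 for Socs3. In 6 of the 17, both separate arrays lay under the floor, so these entered only through co-culture and could not have shown a lower signal there. Differences between culture conditions were tested with limma in an additive model with genotype, in which the disagreement between the genotypes serves as the error (1 residual degree of freedom per probe set, moderated over all probe sets). The ratio within each genotype rests on 1 array per group and has no replicate check. Where culture conditions are said not to overlap, this describes 2 arrays against 2. The share of all probe sets with such an order was not counted, so nothing further is read from it.

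**Figure D1:**
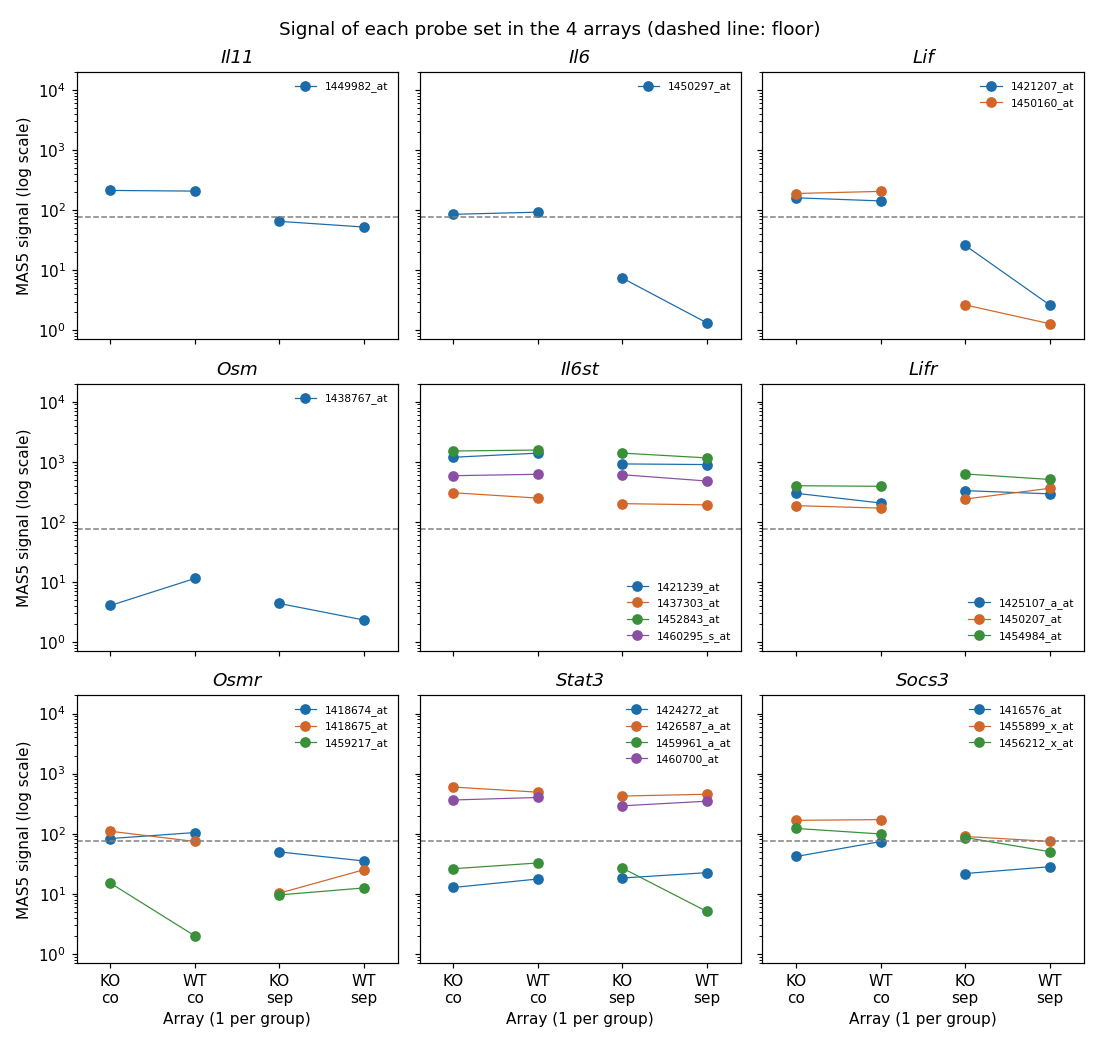
MAS5 signal (log axis) of every probe set of the 9 genes in the 4 arrays, with 1 point per array and the dashed line at the floor of 76.1. Il11, Il6 and Lif lie above the line in both co-culture arrays and below it in both separate arrays, Lifr is lower in co-culture within each genotype in its 3 probe sets, and Osm stays far below the line in all 4 arrays.

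Among the ligands, Il11 and Lif rose in co-culture, Il6 crossed the floor there, and Osm was not measurable. Il11, a cytokine of stromal and epithelial cells, had signals of 212 in knockout co-culture and 207 in wild-type co-culture, against 64.8 in knockout separate culture and 52.1 in wild-type separate culture. The culture conditions did not overlap, and the genotypes lay close together within each of them. The increase was at least 2.79-fold with knockout cells and at least 2.72-fold with wild-type cells. With the separate arrays at the floor, the effect was 1.46 on the log2 scale (SE 0.20, 95% interval 1.04 to 1.88, limma adjusted p = 0.000234). Since both separate signals were set to the same value, this effect could only be positive. The residual of the probe set itself holds only the genotype difference in co-culture.

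Lif encodes leukaemia inhibitory factor, known in mouse for keeping embryonic stem cells undifferentiated and for signalling through the LIF receptor and gp130. Its probe set 1450160_at read 189 in knockout co-culture and 205 in wild-type co-culture, against 2.63 in knockout separate culture and 1.28 in wild-type separate culture. The second probe set, 1421207_at, read 160 and 142 in knockout and wild-type co-culture, against 25.8 and 2.63 in knockout and wild-type separate culture. Both probe sets went the same way in both genotypes, with every separate signal far under the floor. The increase in the first was at least 2.48-fold with knockout cells and at least 2.69-fold with wild-type cells, and in the second at least 2.10-fold with knockout cells and at least 1.87-fold with wild-type cells. In limma the effects were 1.37 (SE 0.20, adjusted p = 0.000406) and 0.99 (SE 0.19, adjusted p = 0.00449) on the log2 scale. As for Il11, both effects could only be positive, and their own residuals hold only the genotype difference in co-culture.

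Il6, the founding member of the family and an inducer of acute-phase proteins in hepatocytes, read 84.9 in knockout co-culture and 92.2 in wild-type co-culture, against 7.37 in knockout separate culture and 1.32 in wild-type separate culture. The conditions did not overlap, but both co-culture signals stood just above the floor, so the ratio can only be given as at least 1.12-fold in knockout and at least 1.21-fold in wild type. On floored signals the limma effect of 0.22 did not pass (SE 0.17, adjusted p = 0.547). Without a floor, on log2(signal + 16), it was 2.38 (SE 0.42, adjusted p = 7.78e-06), so whether Il6 is called depends on how signals under 76.1 are treated. Osm, a cytokine made mainly by myeloid cells, read 4.05 and 11.4 in knockout and wild-type co-culture, against 4.37 and 2.32 in knockout and wild-type separate culture, all in the range of background, and no fold is given.

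Over all probe sets tested, 2.44% were called higher in co-culture and 3.03% lower. Of the family's 17, 5 were called higher and 0 lower (10 of 17 had an unadjusted limma p under 0.05, as had 18.8% of all probe sets): 1 for Il11, 2 for Lif, 1 for Il6st and 1 for Socs3. Of these 5 calls, 3 are among the 6 probe sets above the floor only in co-culture, which could only be higher, so the count is not set against the background. Over the 9 probe sets above the floor in all 4 arrays, which read 3 genes, 6 effects were positive and 3 negative, with a median of 0.26 on the log2 scale beside 0.0018 for the 20926 such probe sets of the array. At least 2-fold higher in both genotypes were 2 of the 17, Il11 and the first Lif probe set, beside 0.327% of all probe sets; both were above the floor only in co-culture, so nothing is read from that share. By the same limit within knockout, 3 of 17 were higher (0.626% of all probe sets) and 0 lower (0.566%), and within wild type 3 of 16 were higher (0.829%) and 1 lower (0.453%). All 5 calls are lost with a spread that does not follow signal intensity: limma without an intensity trend gave adjusted p = 0.0815 for Il11, 0.0825 and 0.118 for the Lif probe sets, 0.208 for Il6st and 0.126 for Socs3, and it called only 14 probe sets of the whole array, so the calls given for other genes rest on the same choice.

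**Figure D2:**
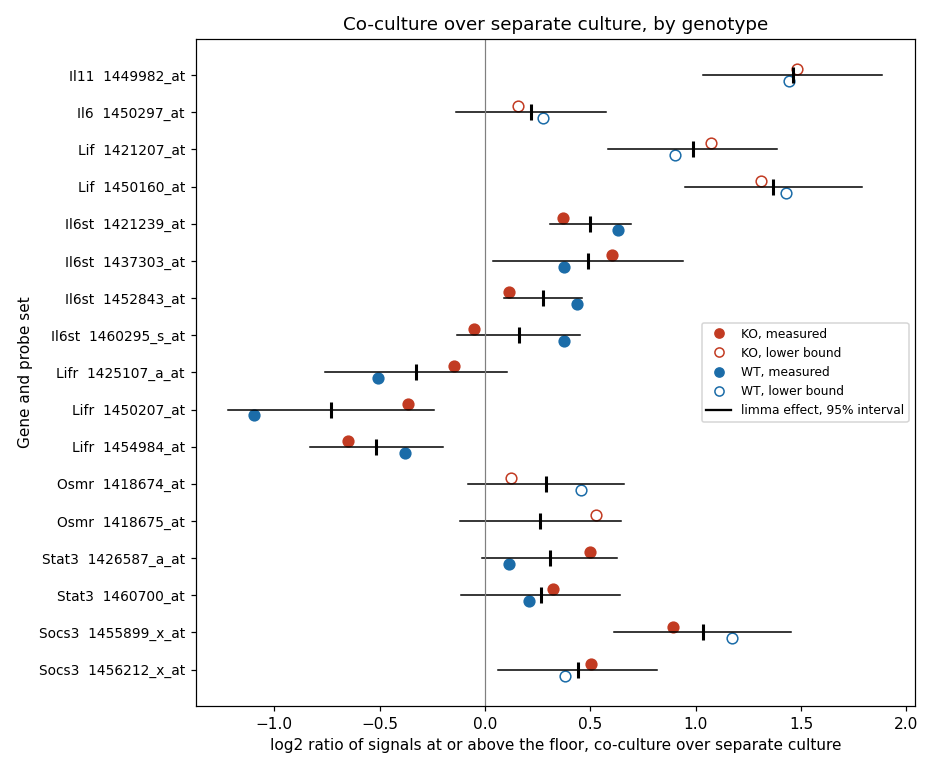
Log2 ratio of floored signals, co-culture over separate culture, for the 17 probe sets above the floor in at least 1 array, in knockout (red) and wild type (blue), with open circles for lower bounds and a black tick and line for the limma effect with its 95% interval. Osmr 1418675_at has no wild-type point because both wild-type arrays lay under the floor. Il11, Lif and Socs3 1455899_x_at lie furthest to the right, and the 3 Lifr probe sets lie to the left of 0 in both genotypes.

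The shared receptor chain Il6st was measured well above the floor by 4 probe sets in all 4 arrays. Probe set 1421239_at read 1191 in knockout co-culture and 1394 in wild-type co-culture, against 922 in knockout separate culture and 900 in wild-type separate culture, and it rose by 0.50 on the log2 scale (SE 0.09, limma adjusted p = 0.00302). Probe set 1437303_at read 305 and 249 in knockout and wild-type co-culture, against 201 and 192 in knockout and wild-type separate culture. In both probe sets the co-culture arrays lay above the separate arrays without overlap, though the second, at 0.49 (SE 0.21), did not pass (limma adjusted p = 0.221). Probe set 1452843_at had 1514 and 1570 in knockout and wild-type co-culture, against 1397 and 1162 in knockout and wild-type separate culture, an effect of 0.28 (SE 0.09, limma adjusted p = 0.0786). It passed in limma with log2(signal + 16) (adjusted p = 0.0329), with a doubled floor (0.0482) and when only probe sets above the floor in all 4 arrays were tested (0.0274). It did not pass with quantile normalization, without the intensity trend, with genotype left out or with no filter. Probe set 1460295_s_at had 587 and 620 in knockout and wild-type co-culture, against 610 and 479 in knockout and wild-type separate culture, so its culture conditions overlapped, and its effect was 0.16 (SE 0.14, limma adjusted p = 0.603). The effect was thus positive in 4 of 4 probe sets, between 0.16 and 0.50, and called in 1 with the filter used.

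Lifr encodes the LIF receptor, which pairs with gp130 to bind LIF and related ligands, and its 3 probe sets all had lower signals in co-culture within each genotype. Probe set 1454984_at read 400 in knockout co-culture and 391 in wild-type co-culture, against 628 in knockout separate culture and 508 in wild-type separate culture. Probe set 1450207_at read 186 and 169 in knockout and wild-type co-culture, against 240 and 362 in knockout and wild-type separate culture. Neither pair of culture conditions overlapped, and in the second the wild-type ratio, 2.14-fold lower, was the only one of the family at least 2-fold lower. The limma effects were -0.52 (SE 0.15, adjusted p = 0.0567) and -0.73 (SE 0.23, adjusted p = 0.0800), so neither passed with the filter used. Both passed when only probe sets above the floor in all 4 arrays were tested, with limma adjusted p = 0.0169 and 0.0175, and with log2(signal + 16), with 0.00594 and 0.0111. With a doubled floor the second alone passed (limma adjusted p = 0.0521 and 0.0103). Neither passed with quantile normalization, without the intensity trend, with genotype left out or with no filter. The last, 1425107_a_at, read 299 and 206 in knockout and wild-type co-culture, against 331 and 293 in knockout and wild-type separate culture, where the conditions overlapped (effect -0.33, SE 0.20, limma adjusted p = 0.431).

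Osmr encodes the oncostatin M receptor, which also pairs with gp130, and it stood at the edge of the floor. Probe set 1418674_at read 82.9 in knockout co-culture and 104 in wild-type co-culture, against 49.7 in knockout separate culture and 35.1 in wild-type separate culture. Probe set 1418675_at read 110 and 74.1 in knockout and wild-type co-culture, against 10.2 and 25.1 in knockout and wild-type separate culture. Both were higher in co-culture without overlap, but with floored signals neither passed, at effects of 0.29 (SE 0.17, limma adjusted p = 0.409) and 0.26 (SE 0.18, limma adjusted p = 0.485). Without a floor the second was called, at 1.70 (SE 0.38, limma adjusted p = 0.000638), and the first was not, at 0.91 (SE 0.33, limma adjusted p = 0.0696). The remaining probe set, 1459217_at, read between 1.98 and 14.99 in the 4 arrays.

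Stat3, the transcription factor activated by all of these receptors, was measured by 2 of its 4 probe sets. Probe set 1426587_a_at read 597 in knockout co-culture and 491 in wild-type co-culture, against 423 in knockout separate culture and 453 in wild-type separate culture. Probe set 1460700_at read 364 and 401 in knockout and wild-type co-culture, against 291 and 347 in knockout and wild-type separate culture. The co-culture arrays lay above the separate arrays without overlap in both, by 0.31 (SE 0.15, limma adjusted p = 0.288) and 0.26 (SE 0.18, limma adjusted p = 0.477), and neither passed. The other pair of Stat3 probe sets read between 5.07 and 32.5. Arrays measure the transcript only, and Stat3 is controlled chiefly by phosphorylation.

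Socs3, the inhibitor that Stat3 induces, rose in co-culture in 1 of its 3 probe sets. Probe set 1455899_x_at read 167 in knockout co-culture and 171 in wild-type co-culture, against 89.8 in knockout separate culture and 74.3 in wild-type separate culture. Its conditions did not overlap, the ratio was 1.86-fold in knockout and at least 2.25-fold in wild type, and the effect was 1.03 (SE 0.20, limma adjusted p = 0.0045). Probe set 1456212_x_at read 122 and 98.8 in knockout and wild-type co-culture, against 86.3 and 50.1 in knockout and wild-type separate culture, with an effect of 0.44 (SE 0.18, limma adjusted p = 0.188). Probe set 1416576_at read 41.7 and 74.0 in knockout and wild-type co-culture, against 21.7 and 28.2 in knockout and wild-type separate culture, all under the floor. In each of the 3, both co-culture arrays lay above both separate arrays, an order whose share over all probe sets was not counted. The suffix of the first and second marks probe sets in which some probes may also match other transcripts.

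The start regions of Il6, Il11 and Lif are shown because these ligand genes were above the floor only in co-culture, and that of Socs3 because it is the feedback gene with a called probe set. The sequences are from RefSeq (GRCm38.p6), run from 250 bases before to 50 bases after the annotated start on the strand of the gene, and have in capitals every match on either strand to TTCNNNGAA (STAT), TGANTCA (AP-1), GGG, then NNNNN, then CC (kappaB-like) or GGAATG (TEAD). Overlapping matches merge into one run of capitals. Of the 2 Il11 starts in the table, the one shown is the window that holds an AP-1 match.
Il6, chr5:30012864-30013163, plus strand: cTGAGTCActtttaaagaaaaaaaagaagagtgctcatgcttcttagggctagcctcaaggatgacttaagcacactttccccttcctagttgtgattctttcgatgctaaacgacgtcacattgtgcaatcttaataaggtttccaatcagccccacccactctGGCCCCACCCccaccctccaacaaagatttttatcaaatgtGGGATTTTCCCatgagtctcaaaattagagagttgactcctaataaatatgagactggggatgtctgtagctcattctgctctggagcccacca
Il11, chr7:4778092-4778391, minus strand: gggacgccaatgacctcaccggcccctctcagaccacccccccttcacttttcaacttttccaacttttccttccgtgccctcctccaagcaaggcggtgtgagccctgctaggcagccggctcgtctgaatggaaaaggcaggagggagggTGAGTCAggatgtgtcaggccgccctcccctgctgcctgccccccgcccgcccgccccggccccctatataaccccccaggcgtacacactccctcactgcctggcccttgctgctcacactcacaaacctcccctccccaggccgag
Lif, chr11:4257318-4257617, plus strand: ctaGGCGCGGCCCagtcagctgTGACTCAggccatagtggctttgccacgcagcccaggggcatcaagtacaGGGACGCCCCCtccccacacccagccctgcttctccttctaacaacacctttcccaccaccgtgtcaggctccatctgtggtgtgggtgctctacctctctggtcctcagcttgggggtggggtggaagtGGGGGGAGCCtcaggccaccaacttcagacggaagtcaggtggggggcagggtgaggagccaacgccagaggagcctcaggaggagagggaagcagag
Socs3, chr11:117969317-117969616, minus strand: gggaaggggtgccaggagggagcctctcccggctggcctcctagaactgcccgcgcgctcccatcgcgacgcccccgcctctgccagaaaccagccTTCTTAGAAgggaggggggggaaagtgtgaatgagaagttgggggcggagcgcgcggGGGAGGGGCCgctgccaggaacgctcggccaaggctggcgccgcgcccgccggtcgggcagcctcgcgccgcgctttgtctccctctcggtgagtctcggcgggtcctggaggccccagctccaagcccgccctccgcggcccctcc

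The AP-1 letters stood at bases 2 to 8 of the Il6 window, 153 to 159 of the Il11 window shown and 23 to 29 of the Lif window. That Il11 window was picked for its match. The other Il11 window held no AP-1 letters, only kappaB-like letters at bases 176 to 186. Over the 12 windows that the table holds for 9 of the 10 genes, 2 of Il11ra1 included and none of Osm, AP-1 letters were in 4, the remaining one being Osmr at bases 254 to 260, while 7.81% of 32851 windows held them. The STAT letters were in 1 of the 12, that of Socs3 at bases 97 to 105, and in 8.3% of all windows. The kappaB-like letters, which include GGGATTTTCC in the Il6 window at bases 207 to 216, were in 9 of 12 and in 50.8% of all windows, and the TEAD letters were in 2 of 12 and in 14.7%. A match describes the letters in the window and is not evidence of binding.

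The genotype comparison set knockout against wild type, and within this family no difference was called. Only the Kupffer cells differed in genotype, and Clec4n and 9 of 17 macrophage and Kupffer cell markers were under the floor in every array. How much of the signal came from those cells is not known, so the lack of calls says little about Dectin-2. Over all probe sets 0.145% were called between genotypes, and of the 17 of the family 0 were called (0 of 17 at an unadjusted limma p under 0.05, beside 9.25% of all probe sets). At least 2-fold apart were 0 of 17 in co-culture, where 0.136% of all probe sets were higher and 0.191% lower, and 0 of 11 in separate culture, where 0.177% were higher and 0.168% lower. Il11 was at 212 in knockout and 207 in wild type in co-culture, and its genotype effect was 0.02 on the log2 scale (95% interval -0.41 to 0.44, limma adjusted p = 0.993). For the Lif probe sets the effects were -0.06 (95% interval -0.48 to 0.36, limma adjusted p = 0.967) and 0.09 (95% interval -0.32 to 0.49, limma adjusted p = 0.945). In Il11 and Lif both separate signals were set to the floor and could not differ, so these effects come from co-culture alone. The same holds for all 6 of the 17 that were above the floor only in co-culture. For the called Socs3 probe set the effect was 0.10 (95% interval -0.32 to 0.52, limma adjusted p = 0.936), and for the called Il6st probe set it was -0.10 (95% interval -0.29 to 0.10, limma adjusted p = 0.822). Effects over the 17 ran from -0.23 to 0.36, both in Lifr. The intervals leave room for differences of the size of the upper and lower bounds given, so they do not show that the genotypes were alike.

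Whether the co-culture change itself depended on genotype could not be tested, since 1 array per group leaves no error for it. The log2 ratio in knockout minus that in wild type was 0.04 for Il11, -0.12 and 0.17 for the Lif probe sets, -0.28 for the called Socs3 probe set and -0.26 for the called Il6st probe set. For Il11 and Lif the separate signals of both genotypes were set to the floor. Their values therefore hold only the genotype difference in co-culture and say nothing on the change itself. Over the 17 probe sets, the difference furthest from 0 was 0.73 in Lifr 1450207_at, where the ratio was -0.36 in knockout and -1.10 in wild type. The other Lifr probe sets stood at 0.36 and -0.27, so the 3 readings of this gene did not point one way. The median size of this difference was 0.27 over the 17 probe sets and 0.17 over all probe sets tested. The limit given for Il11 and Lif holds for all 6 of the 17 that were above the floor only in co-culture.

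The rest of the pathway was read through the brightest probe set of each gene, of which 2.64% were called higher in co-culture and 4.04% lower over 10637 genes. Among 8 other ligands of the family, 4 had a named probe set and 2 were above the floor. Clcf1, a cytokine that signals through the CNTF receptor, rose by 0.49 (SE 0.08, limma adjusted p = 0.00116), at 1634 and 1755 in knockout and wild-type co-culture, against 1107 and 1321 in knockout and wild-type separate culture. Of 5 other receptors, 4 had a probe set and only Il6ra, the interleukin 6 receptor alpha chain, was above the floor, at 228 and 279 in knockout and wild-type co-culture, against 304 and 294 in knockout and wild-type separate culture (effect -0.25, SE 0.20, limma adjusted p = 0.582). Of 11 kinases, STATs and phosphatases, 10 were measured and 0 were called, with a median effect of 0.04. The brightest, the phosphatases Ptpn2 and Ptpn11, had effects of 0.13 and 0.07.

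Among 10 other inhibitors of the pathway, 9 were measured, and 1 was called higher and 1 lower, with a median effect of 0.00. Cish, a SOCS family inhibitor known as a Stat5 target, read 191 and 257 in knockout and wild-type co-culture, against 60.2 and 91.4 in knockout and wild-type separate culture. Its ratio was at least 2.51-fold with knockout cells and 2.81-fold with wild-type cells, and its effect was 1.41 (SE 0.21, limma adjusted p = 0.000430). Socs5 fell by 0.28 (SE 0.08) and lay at the threshold (limma adjusted p = 0.04999), while the brightest, Socs7, had an effect of 0.09. Socs1 was under the floor in all 4 arrays.

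Of 26 textbook Stat3 target genes, 19 were measured, and 9 were called higher and 0 lower, with a median effect of 0.32. Bcl3, an atypical IkappaB protein, read 441 and 367 in knockout and wild-type co-culture, against 61.7 and 80.9 in knockout and wild-type separate culture, an effect of 2.36 (SE 0.22, limma adjusted p = 4.3e-06). Cebpb, a transcription factor of the acute-phase response, read 1334 and 1218 in knockout and wild-type co-culture, against 612 and 650 in knockout and wild-type separate culture, an effect of 1.02 (SE 0.10, limma adjusted p = 5.95e-06). The others included Cebpd, a related factor, at 0.88, Il4ra, a receptor chain, at 0.76, Vegfa, the angiogenic growth factor, at 0.72, Saa3, an acute-phase protein, at 0.67, Timp1, an inhibitor of metalloproteinases, at 0.50 and Fosl1, a subunit of AP-1, at 0.32. Of those named, Cebpd and Saa3 were above the floor only in co-culture, so they could only be higher. Bcl3 was under the floor in knockout separate culture, so its knockout ratio is a lower bound. The count of calls and the median of the list are therefore not set against all genes. Cebpd read 145 and 136 in knockout and wild-type co-culture, against 71.7 and 56.3 in knockout and wild-type separate culture. Saa3 read 139 and 105, against 40.1 and 49.6, in the same order. Other textbook targets did not pass: Mcl1 and Ccnd1, both bright, had effects of -0.04 and -0.15, Myc of 0.17 and Pim1 of 0.27. The acute-phase genes Lcn2, Hp, Serpina3n and Lrg1 were under the floor in all 4 arrays, as was Icam1. Many genes of this list also respond to other pathways, such as NF-kappaB, and the list was drawn up with earlier results of these arrays known.

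Of 17 genes known to act upstream of Il6 or Il11 transcription or on their mRNA, 12 were measured, and 4 were called higher and 1 lower. Nfkbiz, an atypical IkappaB protein needed for Il6 induction in mouse macrophages, read 3380 and 2988 in knockout and wild-type co-culture, against 626 and 780 in knockout and wild-type separate culture, an effect of 2.19 (SE 0.10, limma adjusted p = 3.09e-10). Tgfb1, a known inducer of Il11, had an effect of 1.38 (SE 0.20, limma adjusted p = 0.000329). The AP-1 subunits Fosl2 and Jund rose by 0.82 (SE 0.07, limma adjusted p = 3.59e-06) and 0.69 (SE 0.08, limma adjusted p = 2.17e-05), whereas Jun, the brightest of the list, had an effect of -0.06 (SE 0.07, limma adjusted p = 0.710). Il1r1, the interleukin 1 receptor, fell by 0.34 (SE 0.08, limma adjusted p = 0.0229), and Il1a, Il1b and Tnf were under the floor in all 4 arrays.

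**Figure D3:**
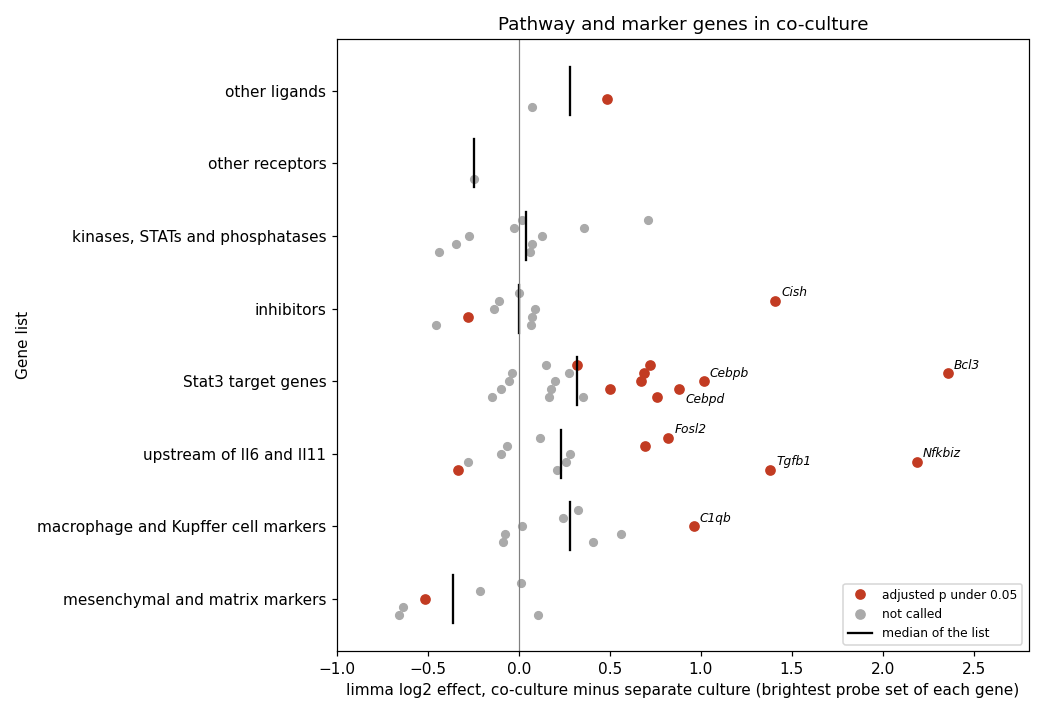
limma log2 effect of co-culture over separate culture for the measured genes of each list (brightest probe set), red where the adjusted p was under 0.05, with a black bar at the median of the list. The Stat3 targets and the upstream genes hold most of the red points, led by Bcl3 and Nfkbiz, the kinases and STATs hold none, and the macrophage and matrix markers hold 1 each.

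Few markers of the cell types in the cultures were called between the conditions, beside 2.64% of all genes called higher in co-culture and 4.04% lower. Of 17 macrophage and Kupffer cell markers, 8 were measured and 9 were under the floor in all 4 arrays, among them Ptprc, Itgam and Adgre1, which encode the surface proteins used for the sort, and the Kupffer cell genes Clec4f, Vsig4 and Timd4. Their summed signal was 1753 and 1649 in knockout and wild-type co-culture, against 1637 and 1384 in knockout and wild-type separate culture. The median effect of the 8 was 0.28, and 1 was called, the complement gene C1qb at 0.96 (SE 0.24, limma adjusted p = 0.0264), while the brightest, Laptm5, had an effect of -0.08. The complement genes C1qa and C1qc of the same list were under the floor in all 4 arrays. Mesenchymal and matrix markers summed to 28642 and 30092 in knockout and wild-type co-culture, against 29450 and 33231 in knockout and wild-type separate culture, with Col3a1 called lower at -0.52 (SE 0.07, limma adjusted p = 0.000179), 1 of 6 measured, and the brightest, Vim, at 0.01. Of 9 epithelial and colon carcinoma markers, 8 were under the floor in all 4 arrays, Cdh1, Krt8, Krt18 and Cdx2 included, so the epithelial label of the tumour line was not borne out by these transcripts. The one measured, Epcam, read 43.9 and 103 in knockout and wild-type co-culture, against 124 and 83.9 in knockout and wild-type separate culture (effect -0.20, SE 0.22, limma adjusted p = 0.692). Of 8 markers of other liver and blood cells, 3 were measured and 0 were called, the brightest being the hepatocyte gene Alb at -0.03. The part of these differences in the results for the interleukin 6 family was not tested.

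The genes whose floored log2 signals over the 4 arrays were most like those of Il11 were Slc7a11, the cystine transporter, at a root mean square difference of 0.06 log2 units, then Aqp3, a water and glycerol channel, and Spsb1, an adaptor of a ubiquitin ligase, both also at 0.06. For Lif 1450160_at they were Slc24a3, a sodium, calcium and potassium exchanger, at 0.02, Spsb1, through another of its probe sets, at 0.02, and Crem, a cAMP-responsive transcription factor, at 0.02. The comparison ran over 19532 probe sets and only 4 arrays, and with both separate arrays of Il11 and Lif at the floor it finds genes whose co-culture ratio comes near their lower bound.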

How the data were processed

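Per the labels' protocols, 20 ng of RNA was amplified with a whole-transcriptome kit and its biotinylated cDNA read on 1-colour arrays. The authors deposited MAS5 intensities (signals) on a linear scale, made with Affymetrix Expression Console 1.4, per the submitters' processing notes. MAS5 subtracts background and scales each array, and the means of the 4 arrays, trimmed by 2% at both ends, were 497 to 498. Probe sets were named from the platform annotation (34945 with 1 symbol, 932 with several, 9160 not listed here). Entrez numbers were looked up in the RefSeq table of GRCm38.p6, which changed 0 symbols.

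Signals were raised to the floor of 76.1 (median of all signals), log2-transformed and fitted with limma 3.58.1 in R 4.3.3 (lmFit, eBayes with intensity trend; terms for culture and genotype). The fit covered 24189 probe sets above the floor in at least 1 array, with Benjamini-Hochberg adjustment over all of them and a threshold of 0.05. The labels name 1 sample per group, so p-values rest on the disagreement between the genotypes' arrays, shared over probe sets of like signal. The shared spread carried 15.15 prior degrees of freedom, beside 1 residual degree of freedom of the probe set itself. Each p-value thus rests mainly on the shared spread, and precision is limited by having 4 arrays. The fit was run on simulated data, with changes added only to probe sets well above the floor. The noise was drawn from the same intensity-trended spread. That run therefore does not check probe sets near the floor or the choice of trend. Alternatives were quantile normalization, log2(signal + 16), a doubled floor, no filter, a filter on all 4 arrays, no trend and leaving out the other factor.

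The members and gene lists were chosen with earlier results of these data known. Named were all member probe sets, list genes called or at least 2-fold in both genotypes, the brightest genes of a list, and, for members at least 2-fold higher in both genotypes, the 3 genes of nearest profile. Of the genes this rule picks, 1 called Stat3 target is not reported here. Ccnd1, Myc, Pim1, Ptpn11 and the genes named as under the floor were added after their values were seen. In the lists, a gene is represented by whichever of its probe sets was brightest on average in log2.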

Additional observations from a re-analysis of the deposited data

Results flagged for a closer look

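One of the 4 Il6st probe sets, 1460295_s_at, had co-culture ratios that pointed opposite ways in the genotypes, at -0.054 on the log2 scale in knockout and 0.37 in wild type. The difference was not tested, since each ratio rests on 1 array per group. The other Il6st probe sets had positive ratios in both genotypes.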

How the results depend on the processing

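With 1 array per group, leaving out an array ends the test, and the limit of these data is the low signal of Il6, Il11, Lif, Osmr and Socs3 beside the floor. The fit is paired by genotype, each co-culture array being set against the separate array of its own genotype, and the values with genotype left out are those without that pairing. The labels give no replicate numbers for a further block. The genotype effect of all 17 family probe sets stayed uncalled under every alternative run. The culture effect kept its sign in all 107 values of the alternatives, with 15 losing the call and 10 gaining it. This sign count is not a check of robustness. Changing the filter, dropping the trend or leaving out genotype alters the test but not the effect. Il11, for example, stayed at 1.46 with no filter, without the trend and with genotype left out. Sign could change only with quantile normalization, log2(signal + 16) or a doubled floor. On floored signals, probe sets above the floor only in co-culture could not turn negative.

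The 1322 culture calls over all probe sets became 688 with quantile normalization, 2002 with log2(signal + 16), 208 with genotype left out, 14 without the intensity trend and 0 with no filter, where 20848 probe sets without any spread enter the fit. The 5 family calls, all higher, became 10 with log2(signal + 16) (8 higher and 2 lower, both Lifr), 4 with a doubled floor (3 higher, 1 lower), 4 with the filter on all 4 arrays (2 higher, 2 lower), 3 with genotype left out, and 0 without the trend or with no filter. The 35 genotype calls became 245 with log2(signal + 16), 85 with a doubled floor, 200 with the filter on all 4 arrays, 1 with quantile normalization, and 0 without the trend, with no filter or with culture left out. With log2(signal + 16), family probe sets at least 2-fold apart numbered 8 in place of 4 in wild type and 5 in place of 3 in knockout for co-culture over separate culture, and 1 in place of 0 for knockout over wild type in separate culture. With a doubled floor they numbered 1 in wild type and 0 in knockout. Il11 was still called with a doubled floor (0.46, limma adjusted p = 0.0433), Lif and Socs3 were not. The genotype effect changed sign in Socs3 1455899_x_at with a doubled floor (-0.020), and with log2(signal + 16) in Il6 (0.17), Osmr 1418674_at (0.039) and Osmr 1418675_at (-0.085). The cause was not tested.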

Other observations

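Il6 1450297_at and Lif 1450160_at belonged to a small set of probe sets that were near 0 in both separate arrays and measured in both co-culture arrays. Of 45037 probe sets, 5 read under 10 in both separate arrays and above the floor in both co-culture arrays, and 0 showed the opposite pattern. The other Lif probe set, 1421207_at, read 25.8 in knockout separate culture, which is over that limit. Between genotypes, 0 were under 10 in both knockout arrays and above the floor in both wild-type arrays, and 0 the other way round. Besides Il6 1450297_at and Lif 1450160_at, the 5 held Ccl17, a chemokine that attracts T cells, at 79.2 and 107 in knockout and wild-type co-culture, against 6.07 and 9.20 in knockout and wild-type separate culture. Cemip, a hyaluronan-binding protein, read 122 and 97.0 in knockout and wild-type co-culture, against 8.33 and 9.62 in knockout and wild-type separate culture. The transcript U90926 read 97.4 and 90.8 in knockout and wild-type co-culture, against 3.31 and 2.71 in knockout and wild-type separate culture. The limit of 10 was chosen after the values of Il6 and Lif had been seen, and 5 probe sets with signals this near the floor are a description of these arrays only.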
